A study of Mus musculus with 5 samples.

Results

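The 10 genes described here are the E2F transcription factor genes E2f1 to E2f8 and the Rb family genes Rb1 and Rbl1, out of 21924 protein-coding genes of the GENCODE M21 annotation (mm10). They were chosen by name. They were read in ChIP-seq peak lists of the repressor Gfi1 and the histone demethylase Lsd1 from MG tumors, a mouse model of medulloblastoma. Cerebellar neural stem cells, positive for Prominin1 and negative for lineage markers, were taken from wild-type C57BL/6 pups aged 5 to 7 days, infected with retroviruses carrying Myc and Gfi1, and grown as tumors in the cerebella of adult immunodeficient NSG mice. Each factor was precipitated from the same 2 tumors, numbered 39 (replicate 1) and 41 (replicate 2), which gave 4 libraries. Both tumors carry both transgenes, Gfi1 is expressed from a viral vector, and no tumor without Gfi1 is among the libraries, so that the peaks describe occupancy in tumors with forced Gfi1 expression. Expression was not measured in these libraries, and the tumor identity could not be checked against marker genes.

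E2F proteins bind the promoters of genes needed for entry into S phase. E2f1, E2f2 and E2f3 are the activators of the family, released when cyclin-dependent kinases phosphorylate Rb, whereas E2f4 and E2f5 repress with pocket proteins of the Rb family, E2f6 represses with Polycomb-type complexes, and E2f7 and E2f8 are atypical repressors that bind DNA without a DP partner. Gfi1 is a zinc finger protein that binds a core of AATC and recruits Lsd1 (Kdm1a), which removes methyl groups from histones at promoters and enhancers. In cerebellar progenitors, from which medulloblastoma can arise, the Rb pathway acts as a brake on cell division.

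The lists held 36836 (Gfi1, tumor 39), 25078 (Gfi1, tumor 41), 30367 (Lsd1, tumor 39) and 33213 (Lsd1, tumor 41) peaks, with median widths of 1443 to 1765 bp. Each peak carries a score of 50 or more whose definition is not given in the sources used here. The score was therefore used only as a percentile within its own list, where a high percentile is a high score. A promoter peak was a peak within 1000 bp of any start site of the gene, and the highest-scoring one stood for the gene. The lists hold no read counts, so that no counting error could be given. The error is the SD over the 2 tumors (n = 2). The study's reporting summary gives mapped reads per library, which were not used here. The library with more mapped reads was that of tumor 41 for Gfi1 and that of tumor 39 for Lsd1.

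The promoters of the activator genes, and those of repressor genes and of Rbl1 for comparison, are shown as the 150 bases upstream of the most 5′ start site in RefSeq or GENCODE, from the RefSeq genome GRCm38.p6 (mm10). They lie at chr2:154569893-154570042 (E2f1, minus strand), chr4:136172124-136172273 (E2f2, plus strand), chr13:29986064-29986213 (E2f3, minus strand), chr10:110745289-110745438 (E2f7, plus strand), chr7:48881597-48881746 (E2f8, minus strand) and chr2:157204535-157204684 (Rbl1, minus strand). None overlaps an annotated exon. Sequences run 5′ to 3′ on the strand of the gene, and capitals mark the Gfi1 core AATC or its reverse complement GATT and any of the E2F words TTTCCCGC, TTTGGCGC, TTTCGCGC and TTTGCCGC on either strand.
E2f1: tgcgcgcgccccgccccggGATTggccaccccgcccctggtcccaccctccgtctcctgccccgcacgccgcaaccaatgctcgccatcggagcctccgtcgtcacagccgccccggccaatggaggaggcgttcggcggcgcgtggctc
E2f2: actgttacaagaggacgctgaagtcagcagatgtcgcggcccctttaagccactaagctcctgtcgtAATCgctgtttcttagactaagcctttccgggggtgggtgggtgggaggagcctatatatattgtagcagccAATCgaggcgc
E2f3: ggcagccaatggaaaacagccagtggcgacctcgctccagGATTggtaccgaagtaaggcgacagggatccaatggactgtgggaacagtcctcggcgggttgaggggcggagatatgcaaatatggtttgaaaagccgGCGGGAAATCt
E2f7: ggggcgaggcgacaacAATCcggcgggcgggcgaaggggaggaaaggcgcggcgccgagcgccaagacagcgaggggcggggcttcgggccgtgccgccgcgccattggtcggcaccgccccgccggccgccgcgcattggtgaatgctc
E2f8: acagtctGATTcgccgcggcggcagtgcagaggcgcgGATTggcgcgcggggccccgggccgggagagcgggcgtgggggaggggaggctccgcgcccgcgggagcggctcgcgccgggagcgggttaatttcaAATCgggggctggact
Rbl1: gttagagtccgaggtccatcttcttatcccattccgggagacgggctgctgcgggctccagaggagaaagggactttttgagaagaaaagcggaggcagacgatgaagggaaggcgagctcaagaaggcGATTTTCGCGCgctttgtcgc
The peaks of E2f3 and Rbl1 lie over sequences in which an E2F word and a Gfi1 core share letters. In E2f3 the E2F word GCGGGAAA spans bases 11 to 4 upstream of the start site and shares 2 letters with an AATC. In Rbl1 the word TTTCGCGC spans bases 18 to 11 upstream and shares 1 letter with a GATT. The other 4 stretches hold no E2F word in these bases, and each holds at least 1 Gfi1 core. The matching 150 bases of E2f4, E2f5, E2f6 and Rb1, which are not shown, hold neither an E2F word nor a Gfi1 core.

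RefSeq promoter windows (250 bases before to 50 after a start site) were available for 7 of the 10 genes, in 9 windows. An E2F word lay in the windows of 4 genes, E2f2, E2f3, E2f7 and Rbl1, against 2.26% of all 32851 windows. The E2f1 window, chr2:154569377-154569676, does not reach the printed stretch of that gene. The bases between them, which include those just upstream of the coding start site at 154569720, were not searched. The cell-cycle element TTTGAA lay in those of E2f2, E2f3 and E2f8, against 17.9% of all windows. The Gfi1 core AATC lay in the windows of all 7 genes, and in 73.1% of all windows, while the longer AAATCA lay in none of the 7 and in 14.0% of all. These are matches of letters, and whether any of them is bound was not tested.

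Gfi1 and Lsd1 each had a promoter peak at every one of the 10 genes in both tumors. Among all protein-coding genes, 53.1% had a promoter peak in all 4 libraries, with 65.0% (Gfi1, tumor 39), 54.2% (Gfi1, tumor 41), 58.5% (Lsd1, tumor 39) and 61.7% (Lsd1, tumor 41) in the single lists. All 10 genes start in CpG-rich sequence, and of the 14329 genes with such a start site 75.2% had a promoter peak in all 4 libraries. CpG counts within 500 bp of the start site ran from 60 in E2f3 to 151 in Rb1, against a median of 42 over all genes. E2f3, with the fewest CpGs, had the highest Lsd1 percentiles of the 10 genes, and Rb1, with the most, ranked among the lower 5 for both factors. These are only the ends of the range, and a relation of CpG content to the presence or score of a peak was not tested. The median promoter percentile of the 10 genes was 87.5, 71.6, 84.5 and 85.6 in Gfi1 tumor 39, Gfi1 tumor 41, Lsd1 tumor 39 and Lsd1 tumor 41. The 11635 genes with a promoter peak in all 4 libraries had medians of 86.1, 78.0, 81.2 and 84.0 in the same order. As a set, the family therefore lay near the other genes with peaks, and the differences were among its members.

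**Figure D1:**
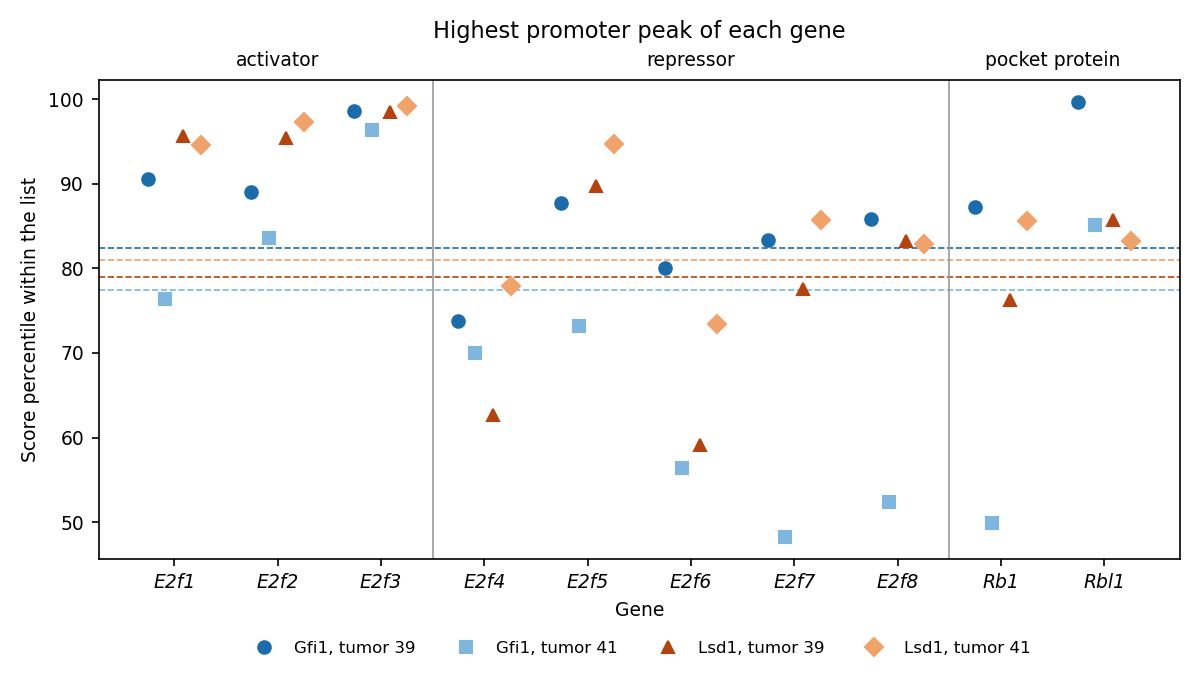
Score percentile within its list (vertical axis) of the highest promoter peak of each gene (horizontal axis), with 1 point per library and a dashed line at the median of all protein-coding genes with a promoter peak in that library. E2f3 lay at 96.3 or above in every library, whereas E2f7, E2f8 and Rb1 lay between 48.2 and 52.3 for Gfi1 in tumor 41.

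The activator genes E2f1, E2f2 and E2f3 carried the wider promoter peaks of the E2F genes for both factors and in both tumors. Their peaks also scored higher than those of the repressor genes, except for E2f1 in Lsd1 tumor 41, where E2f5 was just above it. E2f3 scored highest of the 3, and E2f2 had the widest peaks.

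E2f3 (ENSMUSG00000016477.18, chr13:29906575-29986063, minus strand), an activator expressed from 2 promoters, had its promoter peak at percentiles of 98.6 (Gfi1, tumor 39), 96.3 (Gfi1, tumor 41), 98.4 (Lsd1, tumor 39) and 99.2 (Lsd1, tumor 41). The means were 97.5 ± 1.61 for Gfi1 and 98.8 ± 0.505 for Lsd1 (SD, n = 2). Of all genes with a promoter peak, 92.1%, 90.4%, 95.3% and 95.4% had a lower score in the 4 libraries. E2f3 was the single family member in the upper 5% of all 4 lists, a limit chosen after its values were seen, which 3.49% of all genes passed. In Gfi1 tumor 39 and Lsd1 tumor 41 its score was 3100, a value that 805 and 419 peaks of those lists share, so that it could not be ranked against them. Its peak was 4010, 3347, 4532 and 4083 bp wide and covered both coding start sites, which are 1672 bp apart, in every library. The printed E2F word with its overlapping AATC lies within this peak.

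E2f2 (ENSMUSG00000018983.9, chr4:136172394-136196057, plus strand), an activator closely related to E2f1 and E2f3, had promoter peaks at percentiles of 89.0 (Gfi1, tumor 39), 83.6 (Gfi1, tumor 41), 95.4 (Lsd1, tumor 39) and 97.4 (Lsd1, tumor 41). The Lsd1 percentiles were above the Gfi1 percentiles in both tumors. The peaks measured 7432, 7600, 10871 and 11345 bp, with means of 7516 ± 119 bp for Gfi1 and 11108 ± 335 bp for Lsd1 (SD, n = 2). Of all genes with a promoter peak, 97.5% to 98.6% had a narrower one. The Lsd1 peak covered exons 1 to 4 of 7 in both tumors without a break. Over the same stretch Gfi1 had a pair of peaks, separated by 253 bp in tumor 39 and 175 bp in tumor 41. The second of the pair, 2651 and 3097 bp wide at percentiles of 87.1 and 80.3, covered exons 3 and 4 and a noncoding start site. With the pair joined, 92.8% (tumor 39) and 92.5% (tumor 41) of the Lsd1 bases at the promoter were also in Gfi1 peaks, so that the factors covered nearly the same stretch.

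E2f1 (ENSMUSG00000027490.17, chr2:154559407-154569892, minus strand), the activator also known to drive apoptosis when Rb is lost, had promoter percentiles of 90.6 (Gfi1, tumor 39), 76.4 (Gfi1, tumor 41), 95.7 (Lsd1, tumor 39) and 94.6 (Lsd1, tumor 41). Lsd1 varied little between the tumors, with 95.1 ± 0.789, and Gfi1 more, with 83.5 ± 10.1 (SD, n = 2). The peaks were 3977, 2891, 4062 and 4278 bp wide and lay over exon 1 of 7. The Gfi1 peak of tumor 41 was both the narrowest and the lowest of the 4, and lay wholly within the Lsd1 peak of that tumor, of which it covered 67.6%.

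The repressor genes had promoter peaks in every library too, narrower than those of the activator genes and, with the exception of E2f5, of lower score. The Gfi1 percentiles of E2f6, E2f7 and E2f8 varied more between the tumors than those of the activator genes, and those of E2f4 and E2f5 did not stand apart in this way.

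E2f5 (ENSMUSG00000027552.14, chr3:14578641-14606309, plus strand), which represses with pocket proteins, came closest to the activators, with percentiles of 87.8 (Gfi1, tumor 39), 73.2 (Gfi1, tumor 41), 89.7 (Lsd1, tumor 39) and 94.7 (Lsd1, tumor 41). Its Lsd1 mean of 92.2 ± 3.51 (SD, n = 2) overlapped that of E2f1 within the spread over tumors. Its peaks were 1983, 2001, 2188 and 2198 bp wide, less than those of any activator gene. Their extent was nearly the same in both tumors, with 99.0% of the joint bases shared for Gfi1 and 98.0% for Lsd1.

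E2f4 (ENSMUSG00000014859.9, chr8:105297663-105305370, plus strand), the main partner of the pocket proteins in resting cells, had percentiles of 73.7 (Gfi1, tumor 39), 70.0 (Gfi1, tumor 41), 62.7 (Lsd1, tumor 39) and 77.9 (Lsd1, tumor 41). It carried a pair of peaks in every library, and the second, over its last exons at the 3′ end, also covered a start site of the neighbour Elmo3. In Gfi1 tumor 41 this second peak was the higher one, since the peak over the 5′ start site stood at a percentile of 55.2. The 5′ peak also lay within 304 to 950 bp of a start site of the neighbour Exoc3l, so that neither peak can be assigned to E2f4 alone.

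E2f6 (ENSMUSG00000057469.8, chr12:16810963-16839742, plus strand), the Polycomb-linked repressor, had percentiles of 80.1 (Gfi1, tumor 39), 56.4 (Gfi1, tumor 41), 59.1 (Lsd1, tumor 39) and 73.4 (Lsd1, tumor 41), with the lowest Lsd1 mean of the 10 genes, 66.3 ± 10.1 (SD, n = 2). Its peaks were 1653, 1428, 1913 and 1587 bp wide and covered exon 1. Its higher library was tumor 39 for Gfi1 and tumor 41 for Lsd1.

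E2f7 (ENSMUSG00000020185.16, chr10:110745439-110787384, plus strand), an atypical repressor, had percentiles of 83.3 (Gfi1, tumor 39), 48.2 (Gfi1, tumor 41), 77.5 (Lsd1, tumor 39) and 85.7 (Lsd1, tumor 41). The Gfi1 percentile of tumor 41 stood apart from the other 3 and was the lowest among the 10 genes. Its peaks of 1807, 1504, 1745 and 1781 bp covered all 4 coding start sites of the gene in each library.

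E2f8 (ENSMUSG00000046179.17, chr7:48866429-48881596, minus strand), the other atypical repressor, had percentiles of 85.8 (Gfi1, tumor 39), 52.3 (Gfi1, tumor 41), 83.2 (Lsd1, tumor 39) and 82.8 (Lsd1, tumor 41). Lsd1 was nearly equal in the tumors, at 83.0 ± 0.268, and Gfi1 was not, at 69.1 ± 23.7 (SD, n = 2). The Gfi1 peak of tumor 41 was also the shorter, 1318 bp against 2381 bp in tumor 39 and 2934 and 2493 bp for Lsd1. It began 19 bp downstream of the most 5′ coding start site and covered 1 of the 2 coding start sites, whereas the other 3 peaks covered both. The noncoding gene Gm2788 has a start site within all 4 peaks.

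The pocket protein genes differed from each other. Rbl1 (ENSMUSG00000027641.13, chr2:157145893-157204534, minus strand), which encodes p107, a partner of E2f4 and E2f5, had percentiles of 99.7 (Gfi1, tumor 39), 85.1 (Gfi1, tumor 41), 85.8 (Lsd1, tumor 39) and 83.2 (Lsd1, tumor 41). In Gfi1 tumor 39 its score of 3101.96 was higher than that of 99.1% of genes with a promoter peak, and in the other libraries it passed 64.8%, 64.3% and 55.0% of them. Rbl1 was the single family member with Gfi1 at the higher percentile in both tumors, by 13.9 in tumor 39 and 1.93 in tumor 41. Its peaks were of ordinary width, 1960, 2152, 2168 and 1739 bp, and lay over the printed E2F word.

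Rb1 (ENSMUSG00000022105.6, chr14:73183673-73325822, minus strand), the retinoblastoma protein gene, had percentiles of 87.2 (Gfi1, tumor 39), 49.9 (Gfi1, tumor 41), 76.2 (Lsd1, tumor 39) and 85.6 (Lsd1, tumor 41). Gfi1 had the widest spread between tumors of the 10 genes, 68.5 ± 26.4, while Lsd1 stood at 80.9 ± 6.65 (SD, n = 2). The Lsd1 peaks were 2744 and 2745 bp wide and shared 96.5% of their joint bases. The Gfi1 peak of tumor 39, 2332 bp wide, lay over the start site and exon 1, but that of tumor 41, 1144 bp wide, ended 174 bp upstream of the start site and covered none of exon 1. These 2 Gfi1 peaks shared 31.5% of their joint bases, the least among the 10 genes.

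**Figure D2:**
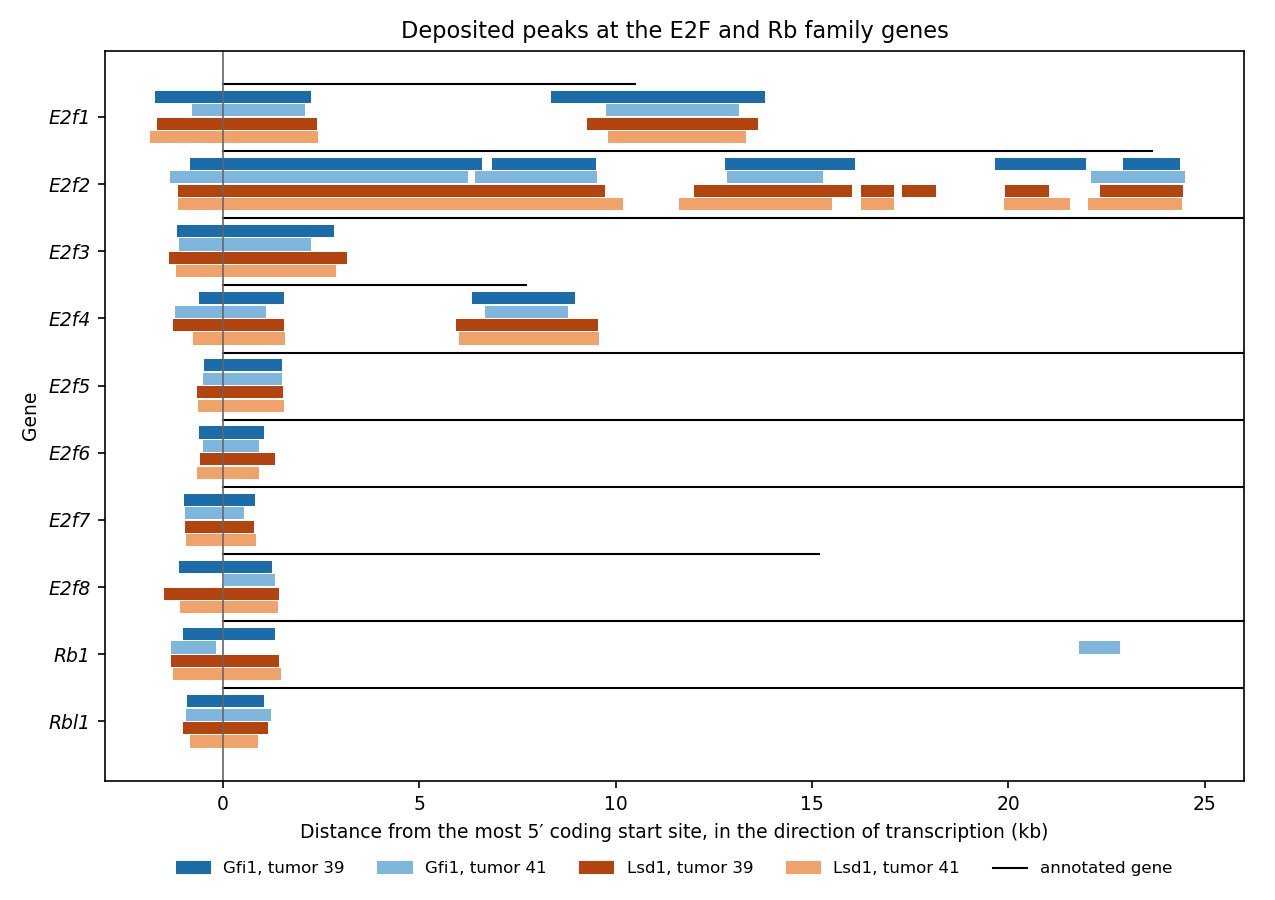
Extent of each deposited peak (bars, 1 colour per library) against distance from the most 5′ coding start site in kb (horizontal axis), for each gene (vertical axis), with the annotated gene as a black line drawn up to the right edge. Wide bars fill the 5′ part of E2f2, the Gfi1 bar of Rb1 in tumor 41 ends 174 bp before the start site, and 1 Rb1 peak lies beyond the plotted range.

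The contrast of the activator with the repressor genes asks whether the factors mark the promoters of the E2F genes alike. The median percentile of E2f1 to E2f3 was 90.6 (Gfi1, tumor 39), 83.6 (Gfi1, tumor 41), 95.7 (Lsd1, tumor 39) and 97.4 (Lsd1, tumor 41). The median of E2f4 to E2f8 was 83.3, 56.4, 77.5 and 82.8 in the same order. The activator median was thus higher in each library, by 18.1 and 14.5 points for Lsd1 (mean 16.3 ± 2.55, SD, n = 2) and by 7.23 in tumor 39 and 27.2 in tumor 41 for Gfi1 (mean 17.2 ± 14.1). The direction held in both tumors, but for Gfi1 the size changed more than 1.5 times when either tumor was left out. Against all protein-coding genes with a promoter peak, whose medians were 82.5, 77.4, 79.0 and 81.0, the median of the activator genes lay above in every library. E2f1 alone was below, in Gfi1 tumor 41, with 76.4 against 77.4. The median of the repressor genes lay close to these medians in 3 libraries, and below in Gfi1 tumor 41, with 56.4 against 77.4.

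Pair by pair, every activator gene stood above every repressor gene in 15 of 15 pairs in each of 3 libraries, and in 14 of 15 in Lsd1 tumor 41, where E2f5 was just above E2f1. The genes share libraries and are not replicates, so that no test was run over them. Over the 2 tumors an exact two-sided permutation test cannot go below a p-value of 0.5, so that none was run over samples either.

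The width separated the activator from the repressor genes in every library, with 15 of 15 pairs in each. The median width of the activator genes was 4010, 3347, 4532 and 4278 bp, and that of the repressor genes was 1983, 1504, 2188 and 2198 bp, in the order Gfi1 tumor 39, Gfi1 tumor 41, Lsd1 tumor 39 and Lsd1 tumor 41. The difference was 1935 ± 130 bp for Gfi1 and 2212 ± 187 bp for Lsd1 (SD, n = 2), which is larger than the spread between the tumors. All genes with a promoter peak had medians of 2085, 2185, 2515 and 2379.5 bp, so that the repressor genes lay somewhat below and the activator genes well above. Peaks of at least 4000 bp, a limit chosen after the values were seen, occurred at 2 (E2f2, E2f3), 1 (E2f2), 3 and 3 of the 10 genes in the 4 libraries, all of them activators. Among all genes with a promoter peak in the library the shares were 10.8%, 10.7%, 18.4% and 16.3%. Width and score come from the same peak and are not independent measures.

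**Figure D3:**
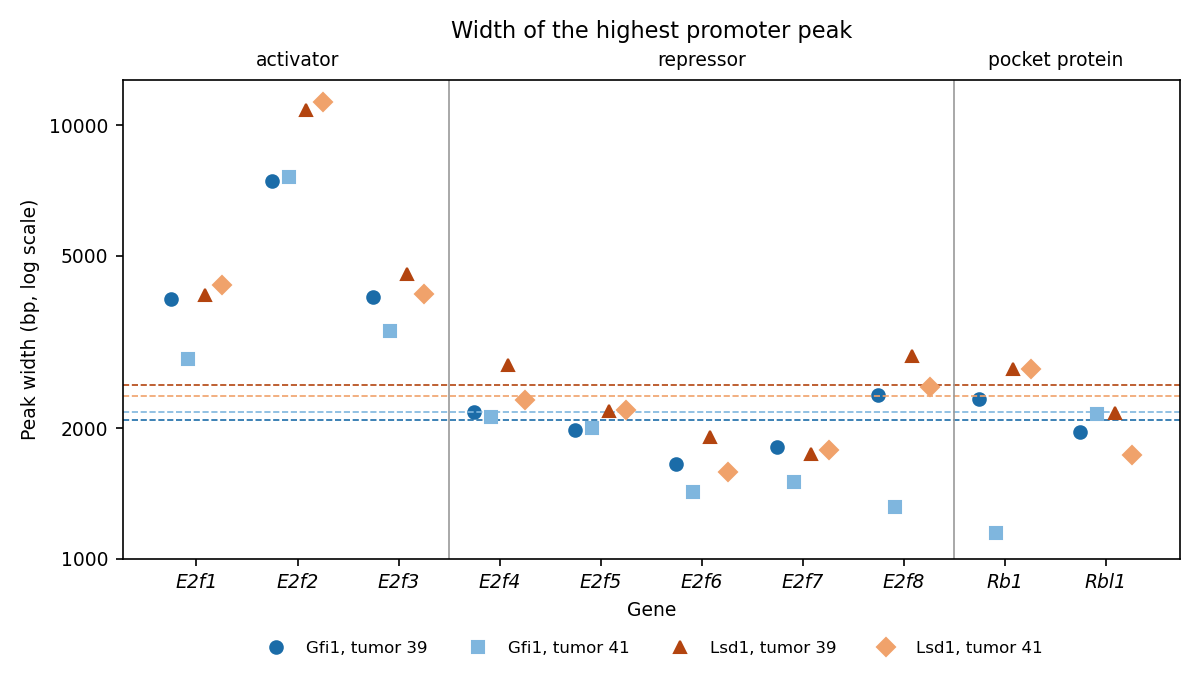
Width in bp on a log scale (vertical axis) of the highest promoter peak of each gene (horizontal axis), with 1 point per library and dashed lines at the median over all protein-coding genes with a promoter peak. In every library the 3 activator genes lie above the 5 repressor genes, and E2f2 reaches 11345 bp for Lsd1 in tumor 41.

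In the order of the mean Gfi1 percentile, E2f3 was followed by Rbl1 (92.4 ± 10.3), E2f2 (86.3 ± 3.86), E2f1, E2f5 (80.5 ± 10.3), E2f4 (71.8 ± 2.67), E2f8, Rb1, E2f6 (68.2 ± 16.8) and E2f7 (65.8 ± 24.8). The ranges over the 2 tumors overlapped for all neighbours, while every gene was higher in tumor 39. Read within each tumor, Rbl1 was above E2f2, E2f1 above E2f5 and E2f5 above E2f4 in both, and the other 6 pairs of neighbours changed order between the tumors. For Lsd1, E2f3 was followed by E2f2 (96.4 ± 1.38), E2f1, E2f5, Rbl1 (84.5 ± 1.82), E2f8, E2f7 (81.6 ± 5.75), Rb1, E2f4 (70.3 ± 10.8) and E2f6. Here 6 of 9 pairs of neighbours kept their order in both tumors, and E2f2 and E2f1, E2f1 and E2f5, and E2f8 and E2f7 changed it. E2f3 stood clear of E2f2, and E2f5 of Rbl1, with no overlap of their ranges over the tumors. The ranges of Rbl1 and E2f8 did not overlap either, but their means differed by less than the SD of Rbl1, and those of the other neighbours overlapped.

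The upper 20% of each list was the first filter of the study and is used here on the score. Of the 10 genes, 9, 3, 6 and 8 had a promoter peak in the upper 20% of Gfi1 tumor 39, Gfi1 tumor 41, Lsd1 tumor 39 and Lsd1 tumor 41, against 36.2%, 24.6%, 28.1% and 32.1% of all genes. The activator genes made up 3, 2, 3 and 3 of these and the repressor genes 4, 0, 2 and 3. The shares of all genes include those without a promoter peak, whereas every family gene had one. Among genes with a promoter peak, 7932 of 14240, 5383 of 11884, 6158 of 12821 and 7042 of 13524 passed in the same order. E2f2, E2f3 and Rbl1 passed in all 4 lists, which 19.9% of all genes, 28.9% of genes with a CpG-rich start site and 37.5% of genes with a promoter peak in all 4 libraries did. Without the Gfi1 library of tumor 41 the count was 6, with E2f1, E2f5 and E2f8 added.

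A high-confidence set of each factor was rebuilt here on the score. It held the upper-20% peaks of replicate 1 with at least 50% of their length in upper-20% peaks of replicate 2. It is not the study's own high-confidence set, which was not read here. Gfi1 had such a peak at the promoters of E2f2, E2f3 and Rbl1, against 22.9% of all genes. Lsd1 had one at E2f1, E2f2, E2f3, E2f5, E2f8 and Rbl1, against 25.9%. Both shares include genes without a promoter peak, whereas every family gene had one in each library. The shares among genes with promoter peaks, which are higher, were not computed. No peak of the rebuilt set of either factor lay at the promoters of E2f4, E2f6, E2f7 or Rb1.

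Whether Lsd1 lay where Gfi1 did was read within each tumor. The promoter peaks of the factors overlapped by at least 1 bp in both tumors at all 10 genes, as at 53.0% of all protein-coding genes, nearly as many as the 53.1% with all 4 promoter peaks. The overlap was close to complete from the side of Gfi1. At the 10 genes 80.8% to 100% of the Gfi1 bases lay in Lsd1 peaks, and the lowest share was that of Rbl1 in tumor 41, where the Lsd1 peak was the narrower. This share of bases was not computed over all genes. Over all genes with a promoter peak, Lsd1 peaks were the wider, with medians of 2515 and 2379.5 bp against 2085 and 2185 bp for Gfi1. From the side of Lsd1, the shares were 74.3% (E2f4) to 100% (E2f7) in tumor 39. In tumor 41 they went down to 39.9% for Rb1 and 52.9% for E2f8, whose Gfi1 peaks were short. The centres coincided less often. The central 200 bp of the peaks overlapped in both tumors at 5 genes, E2f4 to E2f7 and Rbl1, against 40.5% of the 11635 genes with a promoter peak in all 4 libraries. None of the 3 activator genes was among the 5.

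The tumors differed for Gfi1 at each of the 10 genes, whose Gfi1 percentile was higher in tumor 39 every time, as it was at 77.4% of the 11635 genes with a promoter peak in all 4 libraries. Among those genes the median difference between the tumors was 7.27 points, and among the family it was 14.6. Lsd1 went the other way in 7 of the 10, higher in tumor 41, against 66.3% of those genes, with a median difference between tumors 39 and 41 of -3.46 points, against -2.27 over the same genes. The order of the factors at a promoter turned between the tumors at 6 genes (E2f3, E2f4, E2f6, E2f7, E2f8 and Rb1), where Gfi1 had the higher percentile in tumor 39 and Lsd1 in tumor 41. Such a turn in either direction was seen at 60.1% of the 11635 genes, so that 6 of 10 is near the background. At E2f3 the sign in tumor 39 rests on the rank given to tied scores. The Gfi1 list of tumor 41 is the shortest of the 4, and the part of list length in this shift was not tested.

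Outside promoters, 21 peaks lay in the bodies of the genes over the 4 libraries, 4 at E2f1, 15 at E2f2 and 2 at Rb1. Body peaks in all 4 libraries were found at E2f1 and E2f2, against 12.2% of all protein-coding genes, and in any library at E2f1, E2f2 and Rb1, against 33.2%. E2f3, which spans 79489 bp, and E2f5 to E2f8 had none. The 3′ peaks of E2f4 count as promoter peaks because a noncoding start site of E2f4 lies near them. With start sites of coding transcripts alone the count was 27, with 4 peaks at E2f4 and 17 at E2f2.

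In E2f2 the body peaks lay from 11619 to 24492 bp downstream of the start site, were 829 to 4038 bp wide and stood at percentiles from 1.39 to 72.6. The highest peak of each library lay in one stretch, 2378 to 4038 bp wide, at percentiles of 57.9 (Gfi1, tumor 39), 68.6 (Gfi1, tumor 41), 58.7 (Lsd1, tumor 39) and 72.6 (Lsd1, tumor 41). A peak also crossed the 3′ end of E2f2 in every library, at percentiles of 56.1, 54.5, 44.8 and 51.8. With its promoter peaks, E2f2 was thus covered by both factors from before its start to its end, with gaps.

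In E2f1 the body peak crossed the 3′ end of the gene in all 4 libraries, at percentiles of 83.8, 80.5, 78.0 and 71.2 and widths of 5450, 3388, 4346 and 3512 bp. It covered a start site of the neighbour Necab3, so that it cannot be assigned to E2f1. In Rb1 a Gfi1 peak of tumor 39 (percentile 19.3, 767 bp) lay at a start site of Lpar6, a receptor gene inside an intron of Rb1, and another of tumor 41 (percentile 38.9, 1043 bp) lay 21794 bp downstream of the start site. Neither had a counterpart in the other tumor or for Lsd1.

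The wider pathway was read in 3 lists with 50 genes in all, and promoter peaks in all 4 libraries were found at 49 of them. Over all protein-coding genes this share was 53.1%. In the upper 20% of all 4 lists were 19.9% of all genes, and 37.5% of genes with a promoter peak in all 4 libraries. Cdkn2a had none in Gfi1 tumor 41 and is counted there at a percentile of 0.

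The 14 partner and complex genes (DP proteins, the pocket protein gene Rbl2, the MuvB subunits and the E2f6 complex) had median percentiles of 87.9, 81.6, 80.7 and 89.0 in Gfi1 tumor 39, Gfi1 tumor 41, Lsd1 tumor 39 and Lsd1 tumor 41. All 14 had promoter peaks in all 4 libraries, and 6 were in the upper 20% of all 4 lists, against 19.9% of all genes. The highest were Rbbp4, a histone-binding subunit (mean over the 4 libraries 99.1), and Lin37, a MuvB subunit (95.6). The lowest were Foxm1, a mitotic transcription factor (69.7), and L3mbtl2, of the E2f6 complex (70.8).

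The 24 genes known to be induced by E2F at the G1/S transition had medians of 90.1, 84.0, 83.7 and 85.9. All 24 had promoter peaks in all 4 libraries, and 12 were in the upper 20% of all 4 lists, against 19.9% of all genes. The highest were Mcm7, of the replicative helicase (99.2), and Fbxo5, an inhibitor of the anaphase-promoting complex (97.3). The lowest were Tyms, thymidylate synthase (56.1), and Pola1, the catalytic subunit of DNA polymerase alpha (58.6).

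The 12 G1 regulators had medians of 95.6, 85.7, 82.4 and 93.1, with 6 in the upper 20% of all 4 lists, against 19.9% of all genes. The highest were Cdkn1b, the p27 inhibitor (99.4), and Cdk4, the cyclin D kinase (98.9). The lowest were the neighbouring inhibitor genes Cdkn2a (44.7) and Cdkn2b (46.3). Cdkn2a had percentiles of 76.2 (Gfi1, tumor 39), 37.7 (Lsd1, tumor 39) and 64.9 (Lsd1, tumor 41).

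In all 4 libraries the medians of these lists lay above those of the repressor E2F genes. The activator genes were above all 3 lists for Lsd1, but for Gfi1 they were below the G1 regulators in tumor 39 and below the G1/S-induced genes and the G1 regulators in tumor 41. Of the 50 genes, Ccnd3, a D-type cyclin, had the profile most like that of the activator genes, with a mean absolute difference of 3.16 percentile points from their median over the 4 libraries. Lin37 (3.82) and Ccne2, an E-type cyclin (4.27), came next.

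**Figure D4:**
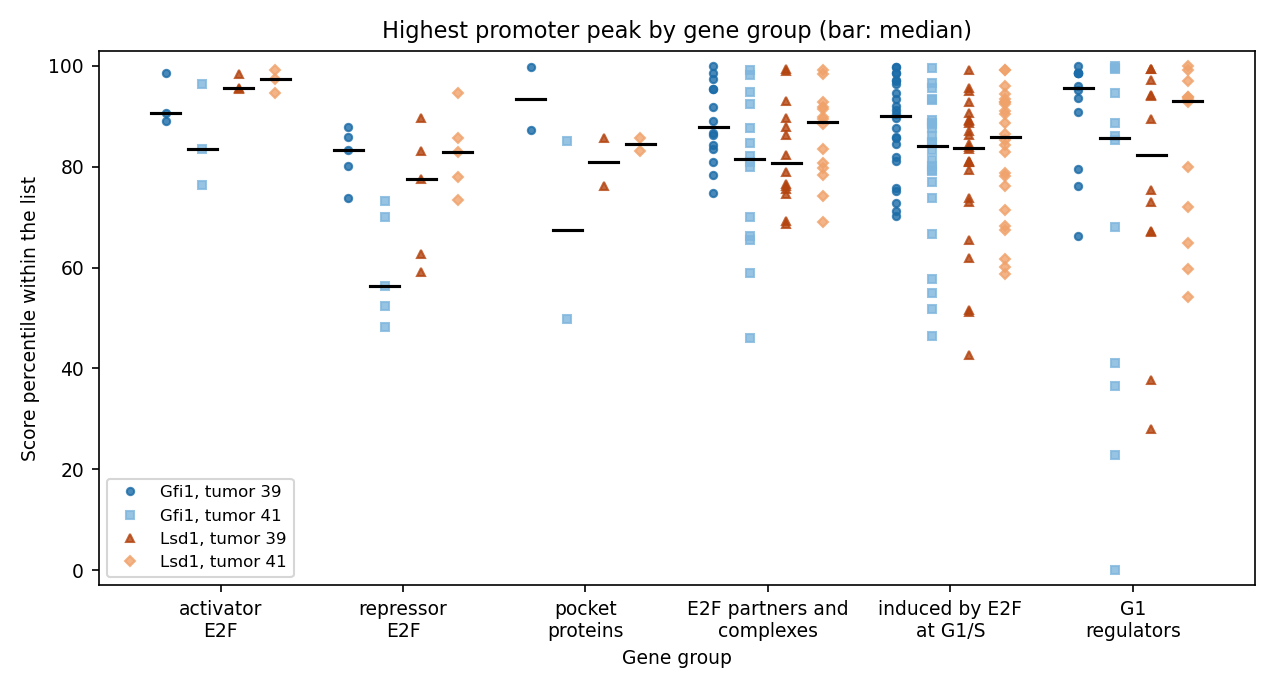
Score percentile within its list (vertical axis) of the highest promoter peak of each gene, by gene group (horizontal axis), with 1 point per gene and library and a bar at the median of each library. The 3 activator genes lie between 76.4 and 99.2, the repressor genes reach down to 48.2 in Gfi1 tumor 41, and the point at 0 is Cdkn2a, which has no promoter peak in that library.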

How the data were processed

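Gfi1 and Lsd1 were measured by ChIP-seq in 2 MG tumors, with rabbit polyclonal antibodies against each factor. Per the labels and the study's methods, the authors aligned reads to mm10 with BWA 0.6.2, merged files with Picard, removed duplicates and called peaks per library with MACS at default parameters against input chromatin (MACS version not given in the sources used here). The input in the sample list, from pooled MGB (Myc/Gfi1b) tumors, was not analysed here. The authors deposited 1 peak list per library with a position and a score per peak, and the deposited score is not scaled between libraries. Which quantity the score is was not given in the sources used here, and it stands here for the enrichment by which the study filtered its peaks.

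Start sites and gene bodies were taken from GENCODE M21 and promoter sequences from RefSeq (GRCm38.p6). Percentiles are mean ranks within a list. The highest-scoring peak within 1000 bp of any start site stood for a gene, and a gene without one was counted at percentile 0. Body peaks lie over 1000 bp from every start site of the gene. CpG-rich means 200 bp windows with a GC share of at least 50% and an observed over expected CpG ratio of at least 0.6. The members, the 3 pathway lists and the comparisons were chosen with earlier results of these data known. All 10 members were named, and of each pathway list the 2 genes with the highest and the 2 with the lowest mean percentile, plus the 3 genes most like the activator genes. Same-numbered libraries come from 1 tumor. No tests were run, since an exact permutation test over 2 tumors cannot go below 0.5 and genes are not replicates. Read depth is not in the lists, and the mapped reads in the study's reporting summary were not used. Peak assignment was tested on simulated data. Alternatives were the start-site window and set, stricter scores, other overlaps, another choice of peak, means for medians, and leaving out each library. Python 3.11.15, numpy 2.4.6, scipy 1.17.1 and pysam 0.24.0 were used.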

Additional observations from a re-analysis of the deposited data

Results flagged for a closer look

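At 6 of the 10 promoters the order of Gfi1 and Lsd1 turned between the tumors, which drew attention because the sign of their difference changed. Each tumor gives a single difference per gene, from a single library of each factor. The difference was not tested. Gfi1 minus Lsd1, in percentile points, was 11.0 in tumor 39 and -35.8 in tumor 41 at Rb1. At E2f7 it was 5.80 and -37.4, and at E2f8 2.60 and -30.5, in the same order. At all 6 genes the highest Gfi1 promoter peak of tumor 41 was the shortest of the 4 libraries. This was also so at E2f1, where the order did not turn. E2f6 went from 20.97 to -17.0 and E2f4 from 11.1 to -7.97. At E2f4 the Gfi1 value of tumor 41 is that of the peak at the 3′ end. E2f3 went from 0.175 to -2.81, within the upper 5% of each list, and its sign in tumor 39 rests on the rank given to a score that 805 peaks share. Of the 11635 genes with a promoter peak in all 4 libraries 60.1% showed such a turn, so that 6 of 10 is near the background.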

How the results depend on the processing

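Of 77 alternative values, 70 stayed the same by the rules used (counts within 1.5 times, differences within 1 SD) and 7 moved, none of them in the opposite direction. Some of the 70 could not have moved. With 2 tumors, a difference with either tumor left out always lies within 1 SD of the mean. Counts already at 10 cannot fall when a library is left out, and no family gene lacked a promoter peak. The 70 therefore do not measure robustness. The number of family members in the upper 20% of all 4 lists moved from 3 to 1 (E2f3) in the upper 10% and to 6 in the upper 40%, and ranged from 3 to 6 when each library was left out. The 6 came without Gfi1 replicate 2. Overlap of the factors in both tumors moved from 10 genes to 5 when the central 200 bp had to overlap. Body peaks went from 21 to 13 in the upper 50% of each list, and the count of promoters with peaks in all 4 libraries from 10 to 8, without E2f7 and Rb1. With means over genes in place of medians, the width difference between activator and repressor genes was 3039 bp for Gfi1 and 4331 bp for Lsd1, with the wide E2f2 peaks included. The Gfi1 percentile difference was 27.2 without Gfi1 replicate 1 and 7.23 without Gfi1 replicate 2. No paired analysis was possible because no result comes from a test, and the differences between the factors within each tumor are given as values. The overlap of the factors was read within a tumor, and with libraries of the other tumor it was found at the same number of genes, 10. The lists carry no read counts, and with 2 tumors per factor the SD itself is imprecise.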

Other observations

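The median width of the promoter peaks of the 12 G1 regulators was large in 3 of the 4 libraries, as for the activator E2F genes. It was 4524 bp (Gfi1, tumor 39), 2602 bp (Gfi1, tumor 41), 4310 bp (Lsd1, tumor 39) and 4233.5 bp (Lsd1, tumor 41). The Gfi1 tumor 41 value leaves out Cdkn2a, which had no promoter peak there. Single genes differed, from Cdkn2b at 1183 to 1444 bp to Cdk4 at 6467 to 12947 bp. The 14 partner and complex genes and the 24 G1/S-induced genes had medians of 2163.5 to 2769 bp over the 4 libraries, nearer to the medians of all genes with a promoter peak. High-confidence Gfi1 peaks lay at the promoters of 8 of the 14 partner genes, 15 of the 24 induced genes and 6 of the 12 regulators, and high-confidence Lsd1 peaks at 6, 14 and 6, against 22.9% (Gfi1) and 25.9% (Lsd1) of all protein-coding genes. These shares, 5021 and 5671 of 21924 genes, include genes without a promoter peak. Promoter peaks in all 4 libraries were found at 11635 of the 21924, but at 49 of the 50 listed genes. The shares among genes with promoter peaks, which are higher, were not computed. The lists were chosen with earlier results known.

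The CpG-rich stretch at the start site was 1010 to 2090 bp long in the 10 family genes, longest in E2f8. The median over all 21911 genes examined was 650 bp, but this includes genes without such a stretch. Only 14329 of the 21911 genes had one, and the median among those, which is higher, was not computed. Whether the family stretches are long for genes with a CpG-rich start site was therefore not tested. E2f5 and E2f6, at 1010 bp, were above 69.2% of all genes, those without a stretch included. The stretch measured 1210, 1390 and 1240 bp in the activator genes E2f1, E2f2 and E2f3. Among the repressor genes it measured 1010 to 1070 bp in E2f4 to E2f7 and 2090 bp in E2f8. Rb1 had 1790 bp and Rbl1 1370 bp.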
